A study of Mus musculus with 8 samples.

Results

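The platelet-derived growth factor (PDGF) genes described here are the receptor genes Pdgfra and Pdgfrb and the ligand genes Pdgfa, Pdgfb, Pdgfc and Pdgfd. They were chosen by their symbols, 6 of 28001 genes, and all 6 were measured in each of 8 single-cell RNA-seq libraries of the mouse embryonic forelimb. Values come from 53085 cells that held at least 3000 unique molecular identifiers (UMIs, each standing for 1 captured transcript) and at most 10% mitochondrial UMIs.

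The study followed the descendants of Hic1-expressing mesenchymal progenitors. All animals were C57BL/6J embryos of the genotype Hic1CreERT2/CreERT2;Rosa26LSLtdTomato/tdTomato, in which a tamoxifen-activated Cre made from the Hic1 locus switches on the red reporter tdTomato, and dams had been given 7.5 mg of tamoxifen at embryonic day (E)10. Sorted tdTomato+ cells made up 1 library for each of the days E11.5, E12.5, E13.5 and E14.5, 1 of an E16.5 proximal segment (the lower stylopod, the elbow and the upper zeugopod), and 1 of an E16.5 distal segment (the lower zeugopod with the autopod). At E11.5 the labels add 2 replicate libraries of tdTomato+ and tdTomato- cells together, called whole limb 1 and 2 here. Forelimbs of several embryos were pooled, and cells with blood, macrophage or endothelial surface markers were removed in the sort. Kit v2 was used until E13.5 and kit v3 afterwards, so stage and kit cannot be told apart between E13.5 and E14.5. Limbs were digested with dispase at E11.5 and E12.5, and with collagenase and pronase from E13.5 on. Stage and digestion therefore cannot be told apart between E12.5 and E13.5.

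PDGF ligands are secreted dimers that activate a pair of receptor tyrosine kinases. PDGFRα responds chiefly to PDGF-AA and PDGF-CC and is a classical marker of embryonic mesenchyme, whereas PDGFRβ responds to PDGF-BB and PDGF-DD and is needed to recruit pericytes and vascular smooth muscle (mural cells) to endothelium that makes PDGF-B. PDGF-C and PDGF-D are secreted in a latent form and are activated outside the cell by proteases such as the plasminogen activators.

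The filtered libraries held 3165 to 11109 cells each, with a median of 6788 to 18473 UMIs per cell. At least 3 tdTomato UMIs were found in 62.3% to 99% of the cells of the sorted libraries. In the whole limb libraries 0 of 5464 and 0 of 5682 cells reached 3, although the labels name both kinds of cell. This allows shares of cells with at least 3 of up to 0.0549% and 0.0528%. By flow cytometry the study found tdTomato+ cells to be rare among E11.5 forelimb mesenchymal cells. Some tdTomato UMIs were present, at 3.88 and 4.21 CPM (a gene's UMIs per 1000000 UMIs of all genes), against 454 CPM in sorted E11.5 cells. Counts of the ribosomal protein gene Rps27 were out of line in the whole limb libraries, at 44.4 and 59.4 CPM against 1412 to 3080 CPM in the 6 sorted libraries. Any difference between whole limb and sorted libraries can therefore not be told apart from a difference in how their counts were made. Pairs of libraries shared at most 54 cell barcodes, and at most 1.08% of the barcodes of the smaller library.

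Pdgfra (ENSMUSG00000029231, chr5:75152292-75198215, + strand, GRCm38/mm10) gave the most UMIs of the 6 genes in every library; UMIs count transcript ends and do not grow with transcript length. Its level in sorted cells was 276 CPM on E11.5, 272 CPM on E12.5 and 282 CPM on E13.5, and once ranked by level the 95% Poisson intervals of E13.5 and E11.5, and of E11.5 and E12.5, overlapped. It was 164 CPM at E14.5, 129 CPM in the E16.5 proximal and 227 CPM in the E16.5 distal library. The whole limb libraries read 111 and 136 CPM, on either side of E16.5 proximal and below the other sorted libraries. Intervals here and below cover counting error only, since each sorted group is 1 library and stages were compared without a test.

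Pdgfrb (ENSMUSG00000024620, chr18:61045150-61085061, + strand) ran in another order. The whole limb libraries were highest, at 78.5 and 91.4 CPM. Among sorted cells E11.5 read 64.5 CPM, E12.5 55.7 CPM, E13.5 37 CPM, E14.5 56.9 CPM, and the proximal and distal E16.5 segments 43 and 53.6 CPM. Pdgfra UMIs thus outnumbered Pdgfrb UMIs by 1.41 and 1.49 to 1 in the whole limbs, by 4.29 to 7.62 to 1 in the sorted libraries up to E13.5, and by 2.88 to 1 at E14.5, 2.99 to 1 in proximal and 4.23 to 1 in distal E16.5 cells. With the cells thinned to 3000 UMIs each, a Pdgfra UMI was found in 29% and 33.7% of whole limb cells and in 29.4% to 55% of sorted cells, and a Pdgfrb UMI in 21.1% and 24%, and in 9.9% to 17.8%.

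**Figure D1:**
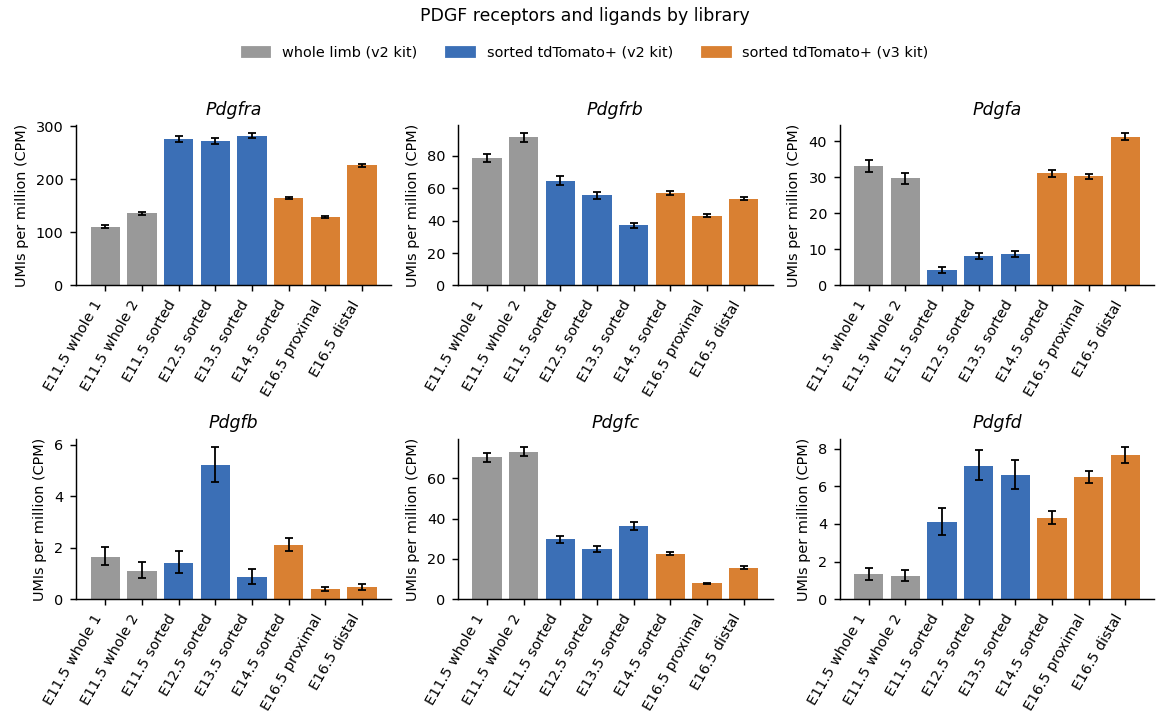
Levels of the 6 PDGF genes in the 8 libraries, in CPM; bars start at 0 and error bars are 95% Poisson intervals (counting error only), with grey for the whole limb and blue for the sorted libraries made with kit v2, and orange for those made with kit v3. Pdgfra was at 272 to 282 CPM in the sorted libraries up to E13.5, Pdgfa rose from 8.68 CPM at E13.5 to 31.1 CPM at E14.5, and Pdgfc was lowest in E16.5 proximal cells at 7.82 CPM.

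Of the ligand genes, Pdgfa and Pdgfc gave the most UMIs. Pdgfa (ENSMUSG00000025856, chr5:138976014-138997370, - strand) read 4.25 CPM in sorted E11.5 cells, then 8.19 (E12.5), 8.68 (E13.5) and 31.1 CPM (E14.5), and 30.3 and 41.3 CPM in the proximal and distal segments of E16.5. The whole limbs, at 33.1 and 29.7 CPM, were close to E14.5 and E16.5 proximal. Pdgfc (ENSMUSG00000028019, chr3:81036416-81214040, + strand) went the other way, from 29.7 (E11.5), 25.1 (E12.5) and 36.3 CPM (E13.5) to 22.7 (E14.5) and to 7.82 and 15.7 CPM in the E16.5 segments, and it was highest in the whole limbs at 70.5 and 73.2 CPM. Pdgfa was thus below Pdgfc in the early sorted libraries and above it from E14.5 on.

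Pdgfd and Pdgfb were scarce. Pdgfd (ENSMUSG00000032006, chr9:6168584-6378850, + strand) read 4.1 to 7.65 CPM in the sorted libraries, with neighbours in that order mostly overlapping, and 1.33 and 1.23 CPM in the whole limbs. Pdgfb (ENSMUSG00000000489, chr15:79995874-80014977, - strand) peaked at 5.2 CPM at E12.5, was 2.12 CPM at E14.5 and read 0.396 and 0.465 CPM at E16.5. At 3000 UMIs per cell a Pdgfb UMI was found in 9 E16.5 proximal cells (0.081%). Of these, 5 were among the mural-like cells described below (1.25% of them) and 2 among the epithelial-like ones (0.212% of them).

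A step between stages was sized against all genes, outside the epithelial-like cells described below and among genes at 5 CPM or more in either library. The steps from E11.5 to E12.5 and from E12.5 to E13.5 were not sized in this way. Of the PDGF genes Pdgfb moved most in them, to 3.72 times (95% interval 2.69 to 5.27) and then to 0.165 times (0.114 to 0.233). From E13.5 to E14.5, 9.58% of genes differed by at least 2-fold in CPM + 1, and of the 5 PDGF genes counted (Pdgfb was too low) only Pdgfa did, at 28.3 against 8.68 CPM, a ratio of 3.26 (95% interval 2.94 to 3.63). From E14.5 to E16.5 proximal it was 10.7% of genes, and of the 5 only Pdgfc, at 7.15 against 22.5 CPM, 0.317 times (0.298 to 0.338). From E11.5 to E16.5 proximal, 40.4% of genes differed by that much. Here Pdgfa was higher, 5.91 times (4.98 to 7.07), and Pdgfc lower, 0.241 times (0.222 to 0.262), and these 2 of the 5 genes counted are close to the share among all genes. Pdgfra stood at 0.542 times its E11.5 level and Pdgfrb at 0.775 times. Forelimbs were split into segments only at E16.5, so stage and segment cannot be told apart in steps to E16.5 proximal. In E16.5 distal cells outside the epithelial-like ones, Pdgfc was 15.5, Pdgfa 40.2, Pdgfra 230.1 and Pdgfrb 54.4 CPM. In these sorted libraries fewer cells of a type and less RNA per cell cannot be told apart in such sums. Over all cells, epithelial-like ones included, shares of cells with a UMI gave the same directions at 3000 UMIs per cell, but without thinning the E14.5 to E13.5 ratios for Pdgfra, Pdgfc and Pdgfd turned from 0.707, 0.632 and 0.578 to 1.06, 1.13 and 1.33, at medians of 14333 and 6788 UMIs per cell, and the E16.5 proximal to E11.5 ratio for Pdgfrb from 0.686 to 1.04.

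To find which cells carried each gene, cells were clustered by stage without the 6 genes. A cluster was called X-like when enough markers of X were raised in it, by the naming rules given with the processing below. Under these rules the markers of X did not have to be among the cluster's leading genes. Between 37.4% and 98.9% of a library's cells stayed in unnamed clusters, which are given by their leading genes. In epithelial-like cells of E16.5 proximal, which should lack the receptors, Pdgfra was found in 2.65% and Pdgfrb in 0.424% of cells at 3000 UMIs (median 37411 UMIs before thinning), and shares near these are read as background. Epithelial-like cells made up 8.49% of that library and at most 0.835% of the others.

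Mural-like cells, led by Rgs5 and Acta2, had the highest Pdgfrb CPM of each library in which they were found, and read higher for Pdgfrb than for Pdgfra, although in distal E16.5 cells by less than counting error. In the 29 mural-like cells of E14.5, Pdgfrb was 222 CPM (190.4 to 258) and Pdgfra 11.6 CPM (5.29 to 22). At E16.5 Pdgfrb was 143 CPM in the 401 proximal and 127 CPM in the 200 distal mural-like cells, where Pdgfra was 73.6 and 121 CPM. The size of the contrast depended on how finely cells were clustered: at resolution 2 in place of 1, a tighter mural-like cluster of 159 proximal and 66 distal cells read 260.3 and 225 CPM for Pdgfrb and 16.3 and 28.9 CPM for Pdgfra. In all 3 libraries these cells were also rich in Pdgfa, with 128 CPM at E14.5 and 124 and 109 CPM at E16.5, and they held the most Pdgfb of any E16.5 mesenchymal cluster, 4.58 and 4.37 CPM, from 42 and 22 UMIs. By share of cells with a Pdgfrb UMI at 3000 UMIs, mural-like cells (30.2% proximal, 23% distal) did not stand above the dermal cluster led by Sox2 and Foxd1 (34.2% and 26.5%), and 24% of the distal ones held a Pdgfra UMI.

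Dermal fibroblast-like cells followed for Pdgfrb, and at E16.5 were rich in Pdgfra as well. At E14.5 the 920 cells of that cluster (Rspo1, Calb1) read 118 CPM for Pdgfrb and 175 CPM for Pdgfra. The E16.5 cluster led by Rspo1 and Cldn10 read 89.4 CPM for Pdgfrb in proximal and 102 in distal cells, and the cluster led by Sox2 and Foxd1 read 130.4 and 109. For Pdgfra these clusters were at 221 and 407 CPM, and at 239 and 414 CPM, the distal values being the highest for Pdgfra at E16.5. At E13.5 the dermal fibroblast-like cells had the highest Pdgfrb of 16 clusters, 66.4 CPM.

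Pdgfra was low in cartilage at the later stages. Chondrocyte-like cells, led by cartilage genes such as Lect1 and Matn4 on E12.5 and Matn1 afterwards, read 278 CPM on E12.5, 153 on E13.5, 66.6 on E14.5, and 55.4 and 58 CPM in the proximal and distal E16.5 libraries. For Pdgfrb they were already the lowest of 15 clusters at E12.5, with 38.4 CPM. From E13.5 on they stayed at the low end of each library, with 19.4, 21.7, 19.7 and 20.6 CPM of Pdgfrb. The E14.5 value rests on how the class was drawn: in log2 units relative to all other cells Pdgfra was -1.33 in this cluster, but -0.20 at resolution 0.5, 0.12 at resolution 2 and -0.25 over cells with at least 3 detected cartilage markers. In E16.5 proximal cells it was -1.29, and between -2.26 and -0.83 under the same choices.

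At E11.5 both receptors were lowest in muscle precursors. The whole limb myogenic-like cluster (Lbx1, Myf5, Pax3) read 13.3 and 28.2 CPM for Pdgfra and 14.6 and 23 CPM for Pdgfrb in the 2 replicates, the lowest of the clusters with at least 50 cells. Distal limb mesenchyme-like clusters, marked by genes such as Hoxd13, lay between 63 and 110.2 CPM for Pdgfra, and the chondrocyte-like ones between 169 and 221 CPM. A small cluster led by En1, Rarres2 and Gdnf stood highest of the whole limb clusters, at 308 and 298 CPM in 59 and 39 cells. Its 217 sorted cells read 225 CPM, below the 282 and 296 CPM of the larger clusters of that library. Over the 109 clusters of at least 50 cells outside epithelial-like ones, the ratio of Pdgfra to Pdgfrb UMIs ran from 0.513 to 19.9 with a median of 3.88. It was below 1 in 3 of them, the mural-like cells of both E16.5 libraries and the myogenic-like cells of whole limb 1. Only in proximal mural-like cells, at 0.513 (0.467 to 0.564), did the interval lie below 1. In distal ones it was 0.955 (0.853 to 1.07), and in myogenic-like cells 0.912 (0.614 to 1.35) and, in whole limb 2, 1.23 (0.902 to 1.67), from 52 to 98 UMIs of a receptor. The ratio of 19.9 belonged to an E13.5 cluster led by Stmn2, Lhx2 and Lrfn5, with 387 CPM of Pdgfra and 19.5 of Pdgfrb.

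**Figure D2:**
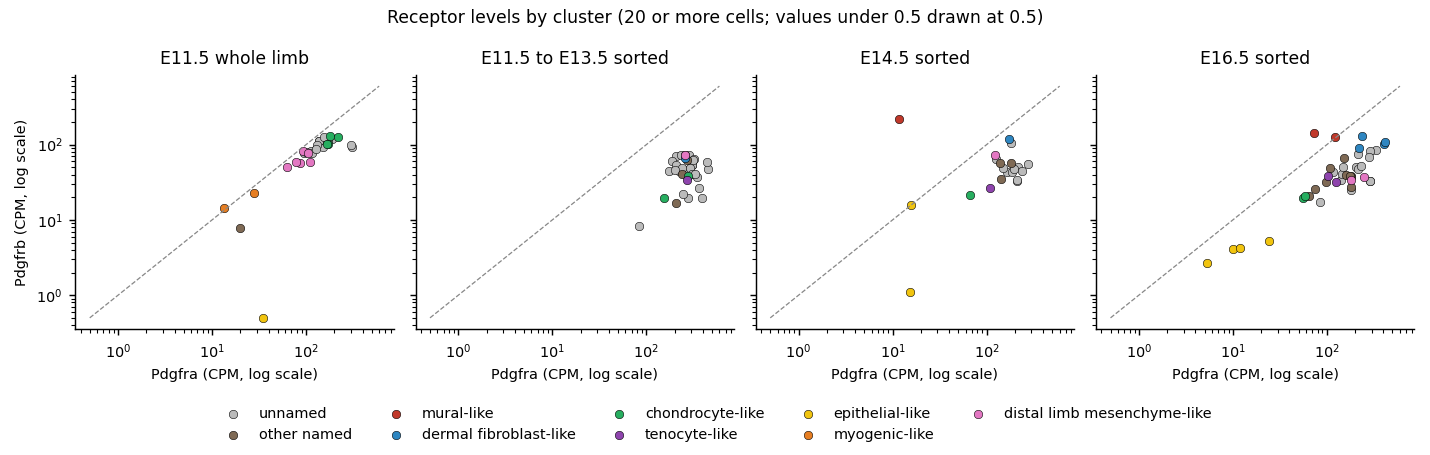
Pdgfrb against Pdgfra in each cluster of each library, in CPM on log axes, with values under 0.5 CPM drawn at 0.5; each point is 1 cluster of 1 library. Mural-like cells of E16.5 proximal lay at 73.6 CPM of Pdgfra and 143 CPM of Pdgfrb, epithelial-like and myogenic-like cells were low in both, and 3 of the 109 clusters of at least 50 cells outside the epithelial-like ones had more Pdgfrb than Pdgfra.

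Pdgfa was highest in myogenic-like cells and in some epithelial-like clusters. Myogenic-like cells of the whole limbs read 278 CPM (262 to 295) and 249 CPM (233 to 266), and a Pdgfa UMI was found in 55.4% and 49.3% of them at 3000 UMIs. In the unnamed and distal limb mesenchyme-like cells around them Pdgfa was 7.03 to 23 CPM. Some epithelial-like cells were also high, with 518 CPM in 21 cells of whole limb 2 and 554 CPM in the 31 cells of an E14.5 cluster led by the basal keratin genes Krt15 and Krt14. At E16.5 the Krt14 and Krt5 cluster read 250.2 CPM in proximal and 281 CPM in distal cells, while the Krt1 and Calm4 cluster, whose leading genes mark upper epidermal layers, read only 2.98 CPM in 617 proximal cells. The myogenic-like contrast was smaller, 3.57 and 3.41 log2 units against 4.51 and 4.23, when cells were picked by 3 detected markers in place of clusters.

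At E14.5 its 18 clusters of at least 50 cells ran from 13 to 72.7 CPM with a median of 25.6 CPM, and at E13.5 from 2.28 to 25.4 CPM with a median of 7.1 CPM, so the higher level at E14.5 was spread over the clusters. In E16.5 distal cells the 17 clusters of that size ran from 2.49 to 109 CPM. At E16.5, besides mural-like cells, it was high in fibrogenic progenitor-like cells (73.4 CPM proximal, 77.7 distal), tenocyte-like cells (54.2 and 49.9), the fibroblast-like cluster led by Cldn3 and Pi16 (43.4 in 47 proximal and 62.5 in 615 distal cells) and the Sox2 and Foxd1 dermal cluster of the proximal library (119.6, against 23.9 in distal cells).

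Pdgfc was highest in myogenic-like cells in the whole limbs, in tenocyte-like cells at E13.5 and in the basal epithelial-like cluster, led by Krt14 and Krt5, at E16.5. In whole limb myogenic-like cells it was 172 and 182 CPM, against 58.9 to 66.8 CPM in the chondrocyte-like, distal limb mesenchyme-like and unnamed cells. Tenocyte-like cells, with tendon genes such as Tnmd and Scx, read 137 CPM at E13.5, 59.7 at E14.5, and 15.8 and 27.7 in the proximal and distal E16.5 libraries. The E13.5 value covers 173 cells and fell from 2.04 to 0.55 log2 units over all other cells at resolution 0.5, where the class took in 577 cells. At E14.5 the highest cluster was a small one of 67 cells led by Lrmp, Eya1 and Aqp1, at 86.9 CPM, and of the clusters with at least 50 cells it also read highest for Pdgfa (72.7) and Pdgfb (12.6). At E16.5 the Krt14 and Krt5 cluster was highest, at 45.4 CPM in proximal cells and 50.7 in distal ones, where it held fewer than 50 cells. Of the distal clusters with at least 50 cells, the unnamed one led by Sema3e, Lhx9 and Cytl1 was highest, at 42.7 CPM in 973 cells. Chondrocyte-like cells read 33.4 CPM in 1059 proximal and 33.5 CPM in 36 distal cells. The largest proximal cluster, led by Acta1 and Tnnc2, read only 0.419 CPM in 2373 cells.

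Pdgfd was highest in fibroblast-like and fibrogenic progenitor-like cells at E16.5 and in unnamed clusters before. Among E16.5 proximal clusters it was highest in the fibroblast-like cells led by Akr1c18, Ly6a and Wnt2 (21.5 CPM), the fibrogenic progenitor-like cells (21.2) and the unnamed Sfrp4, Cbln2 and Clec3b cells (17), and in distal fibrogenic progenitor-like cells it was 19.8. The highest at E13.5 was a cluster led by Crtac1, Nrtn and Rgs5 (16.2) and at E14.5 one led by 2610016A17Rik, Dmrt2 and Cxcl5 (12.7), with 9.53 in fibroblast-like cells. The dermal fibroblast-like clusters read 1.57 to 3.71 CPM over both segments. At E12.5 Pdgfd and Pdgfb were both highest in the same cluster of 526 cells, led by Stmn2, Crtac1 and Aldh1a3, at 21.2 and 14.1 CPM. Endothelial-like cells were few, since cells with endothelial surface markers had been sorted out, but in the 3 libraries that held any they read higher for Pdgfb than every other cluster of at least 20 cells. Pdgfb was 73.4 CPM (42.7 to 117) from 17 UMIs in 19 cells of whole limb 1, 55.2 CPM (30.2 to 92.6) from 14 UMIs in 24 cells of whole limb 2, and 34.1 CPM (19.5 to 55.4) from 16 UMIs in 15 cells of E14.5.

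**Figure D3:**
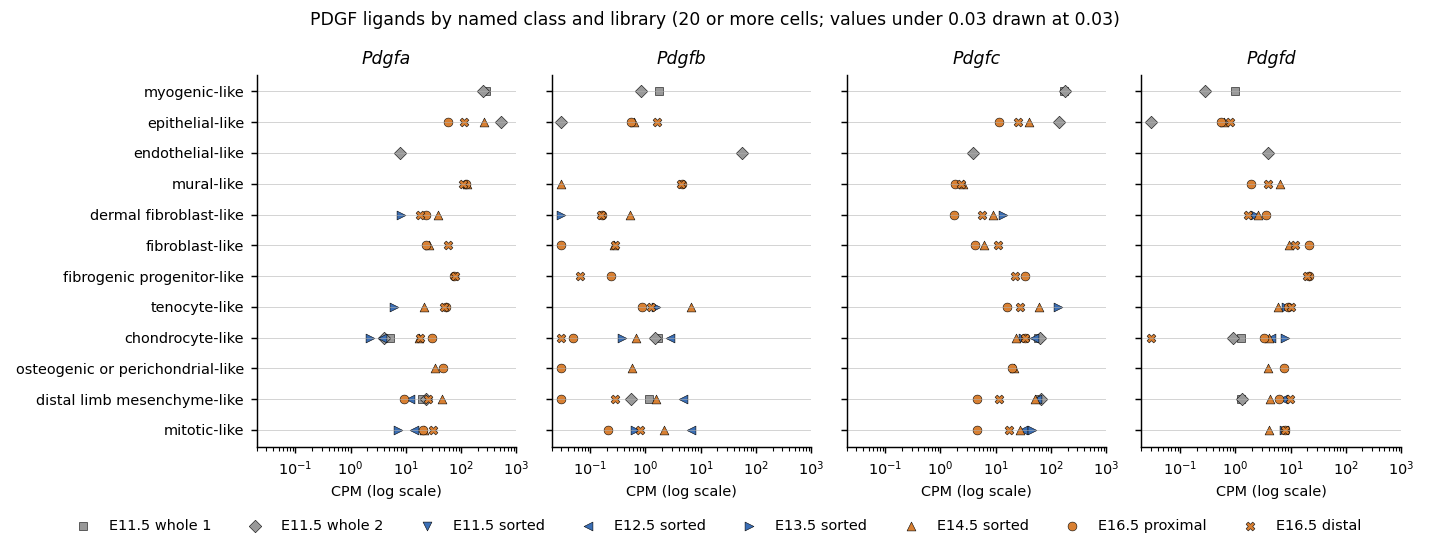
Levels of the 4 ligand genes in named cell classes, in CPM on a log axis, with values under 0.03 CPM drawn at 0.03; each point is 1 class of at least 20 cells in 1 library. Pdgfa was highest in epithelial-like and myogenic-like cells (518 CPM and 278 CPM at E11.5), Pdgfb in endothelial-like cells (55.2 CPM), Pdgfc in myogenic-like cells (172 and 182 CPM) and Pdgfd in fibroblast-like and fibrogenic progenitor-like cells (21.2 CPM each in E16.5 proximal).

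Pdgfra and Pdgfa were found in the same whole limb cells less often than the product of their shares. A Pdgfra and a Pdgfa UMI met in 43 cells of whole limb 1 and 62 of whole limb 2, against 90.7 and 109 from the product of the single shares. The ratio was 0.582 in E16.5 proximal and 0.815 in distal cells, and 0.934, 1.13, 1.06 and 0.941 in the sorted libraries of E11.5, E12.5, E13.5 and E14.5. For Pdgfrb and Pdgfa it was 0.47 and 0.564 in the whole limbs, 0.303 in sorted E11.5 cells from only 2 cells with both, and 0.984 to 1.1 in the other sorted libraries. Pdgfa and Pdgfc were found together more often than the product gave, 1.6 and 1.56 times in the whole limbs. No product within clusters was computed for these pairs, so differences between cell types enter the ratios. In whole limb myogenic-like cells a Pdgfa UMI was found in 55.4% and 49.3%, and a Pdgfra UMI in 3.16% and 7.14%. How far this mix of cell types sets the ratios was not tested.

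How often both receptors were found in a cell was set against the product of their single shares. With cells thinned to 3000 UMIs, 7.08% and 9.15% of whole limb cells held a UMI of each, as did 10.2% of sorted cells on E11.5, 7.51% on E12.5, 5.49% on E13.5, 5.93% on E14.5, and 4.52% and 7.41% in the proximal and distal E16.5 segments. Divided by the product of the single shares these were 1.16 (95% interval 1.05 to 1.28), 1.13 (1.04 to 1.23), 1.04 (0.939 to 1.16), 0.958 (0.864 to 1.06), 1.05 (0.94 to 1.16), 1.08 (0.99 to 1.18), 1.26 (1.15 to 1.37) and 1.13 (1.04 to 1.22). By these intervals the ratio was above 1 in both whole limbs and both E16.5 libraries. The intervals take the product as fixed although it comes from the same cells, which makes them too wide. One that holds 1, as at E14.5 or within a cluster below, therefore does not exclude an excess.

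Within clusters the excess was smaller. Against the sum of the products within clusters the ratio was 0.958 to 1.09 over the 8 libraries, with 1.09 (1 to 1.19) in E16.5 proximal. Of the 108 clusters outside epithelial-like ones with at least 50 cells and both receptors detected, the interval held 1 in 107. The exception was the chondrocyte-like cluster of E16.5 proximal, at 2.51 (1.52 to 3.91), from 19 cells or 1.79% with both. Among the named classes cells with both receptors were most frequent in dermal fibroblast-like cells from E14.5 on, with 12.3% at E14.5, 10.1% and 16.1% in the Rspo1 and Cldn10 cluster of E16.5 proximal and distal cells and 21.9% and 19% in the Sox2 and Foxd1 cluster, and in chondrocyte-like cells in the whole limbs, with 12.3% and 13.5%. Unnamed clusters could lie higher, as did the En1, Rarres2 and Gdnf cluster of whole limb 1 (20.3% of 59 cells) and an E13.5 cluster led by Rab27b (13.8%). In mural-like cells as drawn at resolution 1, 3.99% of proximal and 2.5% of distal cells held both, with ratios whose intervals held 1. Pdgfra read 73.6 and 121 CPM in that class, but 16.3 and 28.9 CPM in the tighter mural-like cluster at resolution 2. Co-detection was not computed in the tighter cluster. At full depth the shares of cells with both were 17.8% to 47.1%, so a share at 1 depth says nothing of how many cells make both receptors.

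**Figure D4:**
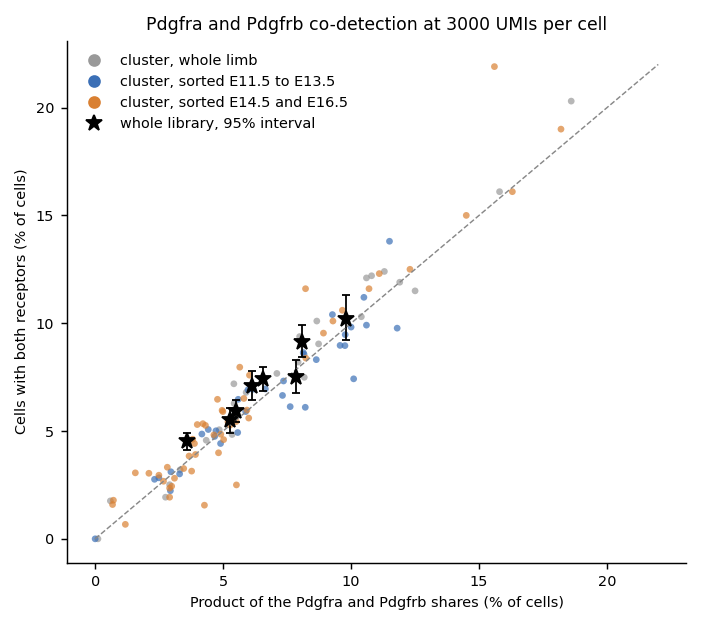
Share of cells with a UMI of both Pdgfra and Pdgfrb at 3000 UMIs per cell, in percent, against the product of the single shares for each library; error bars are 95% binomial intervals. The E16.5 proximal library lay at 4.52% against 3.6% from the product, and the E12.5 library at 7.51% against 7.84%.

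The only comparison with replicates set the E11.5 sorted library against the 2 whole limb libraries. How Hic1-lineage progenitors differ from the limb mesenchyme as a whole cannot be read from it alone. As said above, any difference cannot be told apart from a difference in how the counts were made. In the study tdTomato+ cells lay mostly in the proximal limb at E11.5, so position cannot be told apart either. UMIs were summed over mesenchymal cells, which left out the myogenic-like, epithelial-like, endothelial-like and glial-like ones (6 of 3165 sorted cells, and 5.17% to 5.78% of whole limb cells for the myogenic-like class alone). The lone sorted library was assumed to vary like the whole limb libraries, which leaves 1 residual degree of freedom. The prior degrees of freedom in edgeR came out infinite, so every gene was tested against a spread estimated over all genes. A gene's own spread between replicates carried no weight in its p-value. In edgeR's quasi-likelihood test with Benjamini-Hochberg adjustment 53.0% of 15143 genes passed at 0.05, 26.7% higher and 26.3% lower in sorted cells, so a call by itself sets no gene apart. Of the 6 PDGF genes 2 were called higher and 3 lower.

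Pdgfra read 278 CPM in sorted cells against 120 and 145 CPM in the whole limbs, a log2 difference of 0.89 (SE 0.10, adjusted p = 6.68e-19 in edgeR's test). Pdgfrb read 64.7 against 84.6 and 97.3 CPM (log2 -0.67, SE 0.10, adjusted p = 8.85e-11, edgeR). The sorted cells therefore lay above both replicates for one receptor and below both for the other, and leaving out either replicate moved the differences to between 0.74 and 1.06 and between -0.78 and -0.55.

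Among ligands, Pdgfd was higher in sorted cells, at 4.11 against 1.35 and 1.29 CPM (log2 1.46, SE 0.24, adjusted p = 4.45e-09, edgeR). Pdgfc was lower, at 29.1 against 61.9 and 65.2 CPM (log2 -1.30, SE 0.11, adjusted p = 6.52e-29, edgeR). Pdgfa was lower at 3.51 against 10.8 and 11.5 CPM (log2 -1.84, SE 0.18, adjusted p = 1.35e-22, edgeR). For Pdgfa the size hung on the cells summed, with -3.05 over all filtered cells, muscle precursors included, and -1.04 outside the distal limb mesenchyme-like clusters. Pdgfb, at 1.4 against 1.3 and 0.846 CPM from 40 to 61 UMIs a library, did not pass (log2 0.21, SE 0.32, adjusted p = 0.605, edgeR).

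Genes that work with PDGF signals were taken from 5 lists of 46 genes, of which 43 were tested, and 10 were called higher (23.3%), 10 lower (23.3%) and 23 neither, close to the 26.7% and 26.3% of all genes. Without the distal limb mesenchyme-like clusters 6 of 41 were higher and 9 lower, against 18.6% and 18.0% of all genes, and with no filter on low counts 6 and 8 of 45, against 9.9% and 10.8% of all genes. The lists were chosen with earlier results of these data known, so the shares called in them are a description and test nothing. Among genes that process the ligands, Plat was higher (log2 0.82), as was the convertase gene Pcsk5 (0.46), while the protease inhibitor gene Serpine2 (-1.40) was lower. Plat makes the tissue plasminogen activator that activates PDGF-C. Of the 5 co-receptor and receptor-like genes 3 were higher, Pdgfrl (1.40), a gene for a PDGF receptor-like protein, and the neuropilin genes Nrp2 (0.62) and Nrp1 (0.35). Of 22 adaptor and effector genes 5 were higher, led by Pik3r1 (0.83), Stat5b (0.54) and a pair at 0.53, Stat3 and Src, and 4 were lower, led by Nck1 (-0.60), Sos1 (-0.55) and Ptpn11 (-0.42).

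Of the 5 listed genes for phosphatases, which take phosphate off the activated receptors, and ubiquitin ligases, which mark them for breakdown, 4 were called lower in sorted cells where 26.3% of all genes were, with Cbl at -0.68, Cblb at -0.55, Ptpn2 at -0.53 and Ptpn1 at -0.32, and the list's median was -0.53 against 0.01 over all genes tested. With no filter on low counts, or outside the distal limb mesenchyme-like clusters, 3 of the 5 were called. The 4 tested genes of the other class III receptors and their ligands (Kit, Csf1r, Kitl, Csf1) differed by -0.43 to 0.10, with adjusted p of 0.169 to 0.93 in edgeR's test.

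The E16.5 segments were the other direct contrast, without replicates, and their counts were made with different releases of Cell Ranger (6.0.1 distal and 3.0.2 proximal), so segment and release cannot be told apart. Pdgfra was at 230.1 CPM in distal and 150.0 CPM in proximal cells outside the epithelial-like clusters, a ratio of 1.53, and at 1.76 times with those clusters kept. Only Pdgfc passed 2-fold in CPM + 1, at 15.5 against 7.15 CPM, where 5.66% of all genes differed by at least 2-fold. Pdgfa read 40.2 against 25.2 CPM, Pdgfrb 54.4 against 50 CPM and Pdgfd 7.76 against 7.57 CPM.

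The Pdgfra difference ran through all clusters large enough to be compared. In each of the 11 clusters with at least 50 cells in both libraries Pdgfra was higher in distal cells, with every 95% interval above 1, ratios of 1.11 to 1.84 and a median of 1.4. Chondrocyte-like cells, too few for this, read 58 CPM (42.3 to 77.6) in 36 distal and 55.4 CPM (52.2 to 58.8) in 1059 proximal cells. Distal limb mesenchyme-like cells, also too few, read 247 CPM in 1816 distal and 181 CPM in 30 proximal cells. Of 10095 genes 13.5% were higher in all 11 clusters and 9.89% lower in all. The largest ratios were in the dermal fibroblast-like clusters, 1.84 and 1.73, then mural-like (1.64) and fibrogenic progenitor-like cells (1.61), and the smallest were in mitotic-like (1.11) and tenocyte-like cells (1.21).

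Pdgfrb did not follow. It was lower in distal cells of 8 of the 11 clusters, 7 of them with an interval below 1, and the median ratio was 0.834, although the library as a whole had slightly more Pdgfrb. Pdgfc was higher in distal cells in 7 and lower in 4. Among the clusters with Pdgfc UMIs in proximal cells, the highest ratios were in 3 clusters led by cell cycle or histone genes. These read 4.6 CPM proximally and 17.6 distally in mitotic-like cells, 1.43 and 6.7 in the Hist1h2ab and Hist1h1b cluster, and 0.63 and 7.67 in the Ccne2 and Cdc6 cluster. In fibrogenic progenitor-like cells it was the other way, 22.4 CPM distally and 34.2 proximally. Pdgfa split 5 to 6, with ratios from 0.2 in the Sox2 and Foxd1 dermal cluster to 3.09 in the Ccne2 and Cdc6 cluster. For Pdgfd 8 of 11 intervals and for Pdgfb 10 of 11 held 1.

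**Figure D5:**
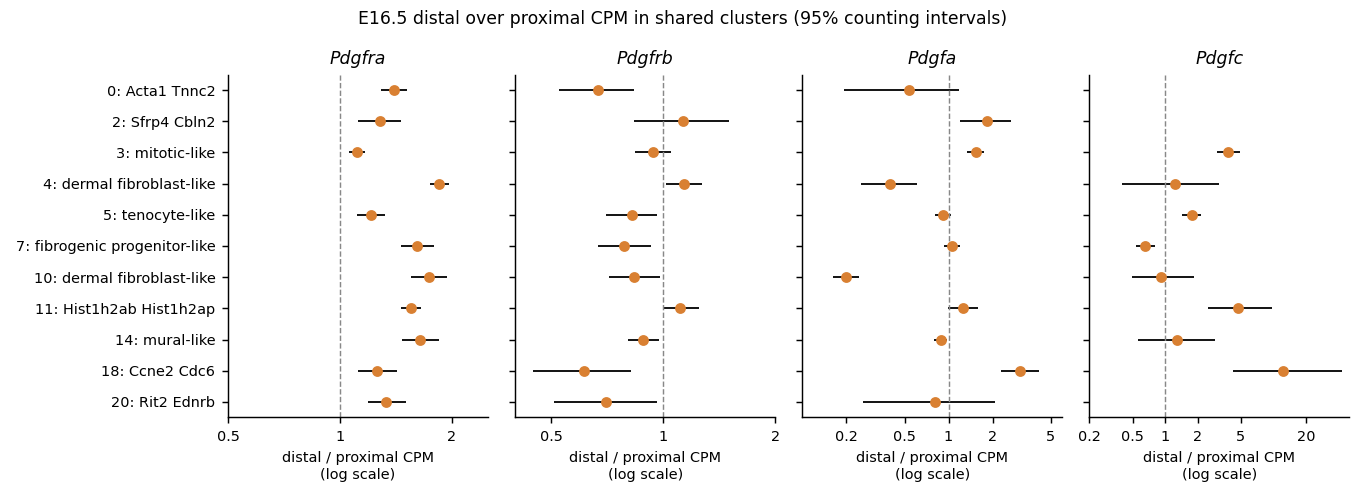
Distal over proximal ratio of CPM at E16.5 for Pdgfra, Pdgfrb, Pdgfa and Pdgfc in the 11 clusters with at least 50 cells in both libraries. The axis is logarithmic. Each point is 1 cluster, with its 95% interval (counting error only), and clusters with 0 UMIs of a gene in either library are not drawn. All 11 points of Pdgfra lay above 1, between 1.11 and 1.84, while 8 of the 11 points of Pdgfrb lay below 1.

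Genes whose levels ran most like a PDGF gene were sought over 38 groups, each a cell class of at least 50 cells in 1 library, by the Pearson correlation of log2(CPM + 1). The groups share libraries and depth, so the values describe and test nothing. Pdgfra ran most like Cped1 (0.93), Pcdh18 (0.92), Tbx15 (0.90), a limb and skin transcription factor gene, Ddr2 (0.89), which makes a collagen receptor kinase, and Smarca1 (0.86). Pdgfrb ran most like Prrx1 (0.86), a limb mesenchyme transcription factor gene, followed by Ednra (0.82), the endothelin receptor gene, Eva1b (0.82), Sh3bgrl (0.81) and S1pr3 (0.81). Pdgfc ran with Cadm1 (0.86), Six4 (0.83), a muscle precursor transcription factor gene, Slc38a1 (0.80), Bag2 (0.79) and Utp18 (0.79), and Pdgfd with Pamr1 (0.87), Chrd (0.87), which makes an inhibitor of bone morphogenetic proteins, Nlgn1 (0.85), Thbs3 (0.84) and Rbm46 (0.84). The nearest to Pdgfa was Ppp1r14b (0.75), then Ppargc1b (0.72), Fam195a, Epb41l4aos and Ybx3 (0.70 each). Pdgfb had the loosest matches, Cystm1 and Dapk2 (0.67), Adgrf5 and Mb21d2 (0.65) and Trp53i11 (0.62).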

How the data were processed

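For each library the authors deposited unnormalised UMI counts of every gene in every barcode, made from reads aligned to a modified mm10 genome; the file headers and the submitters' processing notes name Cell Ranger 3.0.2 for 5 sorted libraries and 6.0.1 for E16.5 distal, and the study's software list names another release without tying it to libraries, so the one behind the whole limb libraries is not known here. Rows were matched by gene ID to GENCODE annotation of GRCm38. Total UMIs were 32957305 to 236408650 a library. Cells with under 3000 UMIs or over 10% mitochondrial UMIs were left out, and 74.2% to 98.6% of barcodes were kept.

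Levels are a gene's UMIs summed over a library's or cluster's cells, as UMIs per 1000000 UMIs (CPM), with exact Poisson 95% intervals. Shares are exact binomial (Clopper-Pearson) with cells thinned at random to 3000 UMIs. Both cover counting error only. Cells were clustered per stage (scanpy 1.11.5, resolution 1) without the 6 genes, Hic1, the added sequences, mitochondrial and sex-linked genes. A cluster took the name of the class with the highest share of raised markers (log2 fold of at least 1, detected in at least 10% of cells) and stayed unnamed with fewer than 3 of them or with more markers of another class among its top 10 genes. After the clusters were seen, 2 rules were added: E11.5 clusters with over 90% of their cells from the sorted library stayed unnamed, and a cluster with no marker of its own in the top 10 was named only if most of its markers were raised and 1 was in the top 20. Scrublet called at most 0.0948% of a library's cells doublets and was judged not to have worked, so the top 5% of its scores were left out as an alternative.

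Summed counts of E11.5 mesenchymal cells were tested with edgeR 4.0.16 (TMM, filterByExpr, quasi-likelihood, Benjamini-Hochberg over 15143 genes), with DESeq2 1.42.0 and limma 3.58.1 (voom) as alternatives. On simulated counts for that comparison, run on 15143 genes, 100 genes were changed by 2-fold or by 4-fold. Of these changes 84% and 97% were recovered, with 5 false calls each. In the data 53.0% of genes were called, so the simulation cannot tell how reliable calls are at such a share. Nothing in the labels says that the whole limb replicates came from separate litters, so p-values may measure technical spread. All 6 PDGF genes are named throughout; of each pathway list the 3 genes with the largest change in each direction that passed are named (more where values tie or a list is given whole, and 1 gene that the rule names is not reported here), and of each member the 5 genes most like it. The genes, lists and markers were chosen with earlier results of these data known. No promoter or protein sequence was used.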

Additional observations from a re-analysis of the deposited data

How the results depend on the processing

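In the E11.5 test Pdgfra, Pdgfrb, Pdgfa, Pdgfc and Pdgfd kept their direction and stayed past the threshold with each other scaling, filter, tool and cell set tried, while Pdgfb never passed and was -0.15 over all filtered cells. The number of genes called was 4881 with DESeq2 and 4200 with no filter on low counts, in place of 8025. Leaving out a whole limb replicate gave ranges of 0.74 to 1.06 for Pdgfra, -0.78 to -0.55 for Pdgfrb, -1.90 to -1.77 for Pdgfa, -0.05 to 0.54 for Pdgfb, -1.35 to -1.25 for Pdgfc and 1.45 to 1.48 for Pdgfd, as values with no test. No paired analysis was possible because the sorted group is 1 library and shares no labelled replicate number with the whole limbs. Without thinning, the share of cells with a UMI, E14.5 over E13.5, turned to 1.06 for Pdgfra, 1.13 for Pdgfc and 1.33 for Pdgfd and moved to 4.89 for Pdgfa, 4.54 for Pdgfb and 2.26 for Pdgfrb. For E16.5 proximal over E11.5 it turned to 1.04 for Pdgfrb and moved to 0.826 for Pdgfra, 0.526 for Pdgfb, 0.502 for Pdgfc and 2.88 for Pdgfd, and for distal over proximal Pdgfra to 1.21. At 5000 UMIs E14.5 over E13.5 was 2.83 for Pdgfa and 0.762 for Pdgfra, and Pdgfra was 1.43 distal over proximal and 0.573 proximal over E11.5. Another thinning seed gave 0.785 for Pdgfd, E14.5 over E13.5. Outside epithelial-like cells (chosen after seeing the data) distal over proximal was 1.55 for Pdgfa, 1.41 for Pdgfra and 1.11 for Pdgfrb, and proximal over E11.5 was 0.58 for Pdgfra. Co-detection ratios moved by less than their intervals in all 56 values computed.

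Classes drawn in other ways moved the log2 ratio to all other cells. Over cells with 3 detected markers, E16.5 proximal mural-like cells were at 2.57 for Pdgfa, -1.36 for Pdgfra and 2.15 for Pdgfrb, the distal ones at -1.62 for Pdgfra and 1.84 for Pdgfrb, myogenic-like cells at 3.57 and 3.41 for Pdgfa, tenocyte-like cells at 1.51 (E13.5) and 1.45 (E16.5 proximal) for Pdgfc, chondrocyte-like cells at -0.25 (E14.5) and -0.83 (E16.5 proximal) for Pdgfra, and dermal fibroblast-like cells at 1.16 (E14.5) and 1.02 (E16.5 distal) for Pdgfrb. Resolution 0.5 gave 0.55 for Pdgfc in E13.5 tenocyte-like and -0.20 for Pdgfra in E14.5 chondrocyte-like cells. Resolution 2 turned the latter to 0.12, gave -2.26 in E16.5 proximal chondrocyte-like cells, and in mural-like cells gave 3.30 for Pdgfa, -3.00 for Pdgfra and 2.72 for Pdgfrb proximally, and -2.99 and 2.12 for the receptors distally. Clustering the time course together gave 2.97, -1.93 and 2.54 for the proximal mural-like cells and 1.08 for Pdgfc in E14.5 tenocyte-like cells. Without the top 5% of doublet scores (chosen after seeing the data) Pdgfra was -1.55 in E16.5 proximal chondrocyte-like and Pdgfrb 1.37 in E14.5 dermal fibroblast-like cells. The cause of these shifts was not tested.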
